A study of Mus musculus with 20 samples.

Results

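Glutamate transporters and enzymes of glutamate metabolism were followed in cochlear RNA-seq of mice lacking the long isoform of Bai1 (Adgrb1). The 8 genes were chosen by function from the 24411 genes of the deposited tables, and all 8 were present. They are the vesicular glutamate transporters Slc17a7 (VGLUT1), Slc17a6 (VGLUT2) and Slc17a8 (VGLUT3), the plasma membrane glutamate transporters Slc1a3 (GLAST) and Slc1a2 (GLT-1), glutamine synthetase (Glul), the glutaminase Gls2 and the glutamine transporter Slc38a1 (SNAT1).

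Glutamate is the transmitter of the synapse between inner hair cells and spiral ganglion neurons (SGNs). Inner hair cells load it into vesicles with VGLUT3, whereas SGNs, which release glutamate in the cochlear nucleus, use VGLUT1 and VGLUT2. Released glutamate is taken up by neighbouring supporting and glial cells, chiefly through GLAST, and glutamine synthetase converts it to glutamine. Glutamine re-enters neurons through carriers such as SNAT1, and glutaminases turn it back into glutamate.

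Control mice were heterozygous (Bai1tm2b/+) and were compared with homozygous littermates (Bai1tm2b/tm2b) on a C57BL/6N background, with animals of either sex. The tm2b allele deletes exons of the long isoform in every cell and leaves a lacZ cassette, while the short isoform is kept, and the controls carry 1 copy of it. Tissue of 4 mice was pooled for each library, taken from the sensory epithelium and spiral ganglion of the apical coil, with 3 libraries per genotype at P22 and 7 per genotype at P7. At P7, replicates 5 to 7 were deposited as estimated counts and replicates 1 to 4 as whole numbers with library totals of 999644 to 999777, treated here as rounded TPM (transcript levels scaled to gene length and to a fixed library total). Nothing in the labels ties single animals to libraries, so p-values measure the spread between pools. In bulk tissue, fewer cells of a type and less RNA per cell cannot be told apart.

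Total counts ranged from 35725991 to 40350413 at P22 and from 31108542 to 58807162 at P7, and the depth behind the TPM values is unknown. Adgrb1, summed over both isoforms, was lower in all Bai1tm2b/tm2b libraries at P22 (90.8 to 95.8 CPM, that is counts scaled to library size, against 137 to 151) and in P7 replicates 5 to 7 (23.8 to 34.3 against 35.5 to 61.5). In P7 replicates 1 to 4 it overlapped (9 to 12 TPM in Bai1tm2b/tm2b libraries and 7 to 12 in controls), and because the short isoform is counted too, this level is only a partial check of the labels. Markers of neurons, hair cells, supporting cells and Schwann cells were detected in every set. Of a list of 8 central glia markers, 5 were higher at P22 in Bai1tm2b/tm2b mice by the call used below, and their summed level was 866 to 1392 CPM against 602 to 731. A list of 10 brain neuron markers summed to 130.1 to 149.8 CPM against 112 to 123, with Neurod6, Tbr1 and Gabra6 each under 0.5 CPM in all P22 libraries. One P22 control library (replicate 2) stood apart in the summed level of 6 stria vascularis markers, though not in each of them. The sum was 481 CPM against 75.9 to 106 in the other P22 libraries. The part of these markers in the results below was not tested.

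The windows just upstream of the 3 vesicular transporter genes are shown because these genes, which load the same transmitter in different cells, did not share a direction at P22. Each is the 250 bases before the most upstream RefSeq start (GRCm38.p6), written 5′ to 3′ on the gene's strand, with GC boxes (GGGCGG on either strand) in capitals. They lie at chr7:45163671-45163920 on the plus strand for Slc17a7, at chr7:51621580-51621829 on the plus strand for Slc17a6 and at chr10:89621250-89621499 on the minus strand for Slc17a8.
Slc17a7: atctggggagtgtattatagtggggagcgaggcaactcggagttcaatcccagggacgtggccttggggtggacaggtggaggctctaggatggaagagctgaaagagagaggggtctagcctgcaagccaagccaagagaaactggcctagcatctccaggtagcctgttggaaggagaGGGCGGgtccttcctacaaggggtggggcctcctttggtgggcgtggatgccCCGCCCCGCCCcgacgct
Slc17a6: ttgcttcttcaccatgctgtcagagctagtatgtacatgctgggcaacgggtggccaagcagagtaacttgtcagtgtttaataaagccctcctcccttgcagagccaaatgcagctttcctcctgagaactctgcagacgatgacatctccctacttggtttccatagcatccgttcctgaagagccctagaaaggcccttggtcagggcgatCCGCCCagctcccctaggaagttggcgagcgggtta
Slc17a8: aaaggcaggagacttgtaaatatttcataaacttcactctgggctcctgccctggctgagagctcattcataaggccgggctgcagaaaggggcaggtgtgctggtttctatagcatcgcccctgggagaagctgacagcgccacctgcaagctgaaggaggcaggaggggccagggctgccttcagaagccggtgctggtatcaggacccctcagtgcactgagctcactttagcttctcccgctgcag

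The Slc17a7 window held 3 GC boxes, the Slc17a6 window 1 and the Slc17a8 window 0, and 32.7% of 32851 such windows of all genes held at least 1. Their GC contents were 61.2%, 53.2% and 57.2%, against a median of 52.4% over all windows. None of the 3 windows held a TATA box (TATAAA) or a CCAAT box (CCAAT), which were found in 12.4% and 33.8% of all windows. These are letter matches only. Of the 8 genes, 6 were matched in the RefSeq promoter table.

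At P22 Gls2, Slc17a6, Slc17a7 and Slc38a1 were lower in Bai1tm2b/tm2b mice and Slc17a8 and Slc1a3 were higher by the adjusted p, and of these only Gls2 also met the limit on size. A gene was called where the adjusted p (Benjamini-Hochberg over 15443 genes, edgeR quasi-likelihood test) was under 0.05, the log2 fold change was beyond 0.5 in size and its standard error (SE) was under 0.5. By this rule 1 of the 8 genes, Gls2, was called lower and 0 were called higher, where 1.41% of all genes tested were called lower and 1.74% higher; DESeq2 gave the same 2 counts. The study's enriched pathways for its genes lower at P22 named Slc17a6 and Slc17a7 as well as Gls2. Here both of these vesicular transporters fell short of the size limit, and the reason was not tested. By the adjusted p alone, 4 were lower (7.28% of all genes) and 2 were higher (5.04%). The groups did not overlap for 4 genes that were lower (17.9% of all genes) and 2 that were higher (15.8%).

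**Figure D1:**
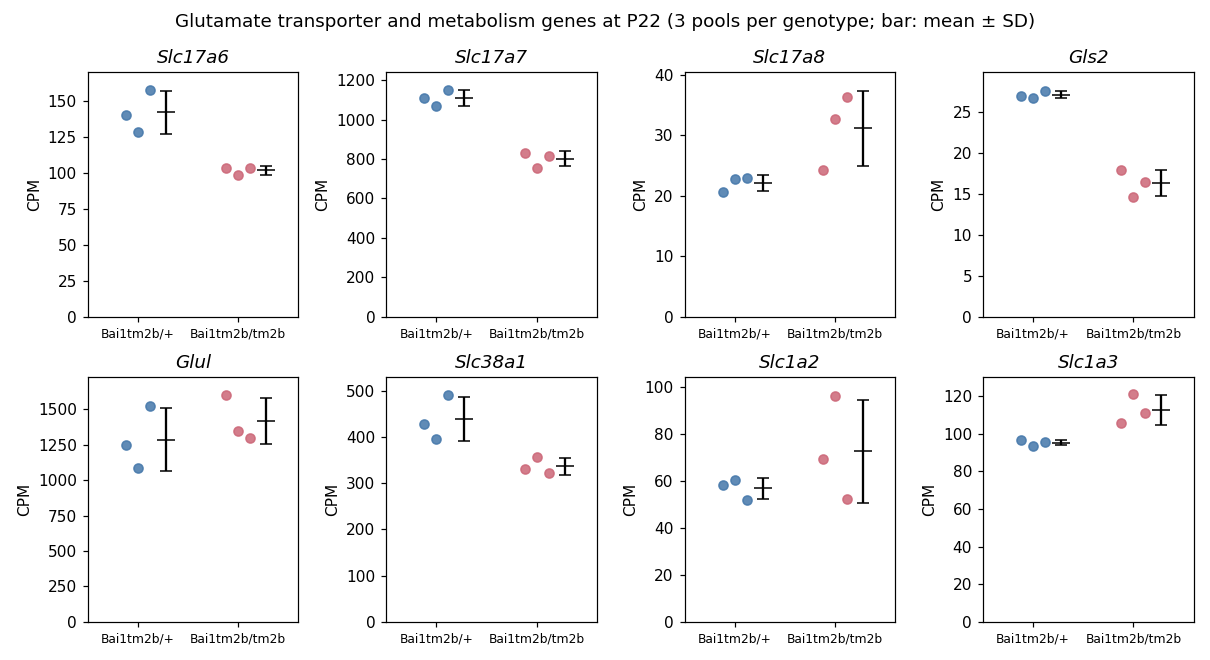
CPM of the 8 genes in each P22 library (points, 3 per genotype), with the mean and SD beside them and each axis starting at 0. The Bai1tm2b/tm2b points lie below every control for Slc17a6, Slc17a7, Gls2 and Slc38a1, above every control for Slc17a8 and Slc1a3, and overlap them for Slc1a2 and Glul.

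Slc17a7, the vesicular transporter with the highest level, lies at chr7:45163949-45176142 (GRCm38). It measured 1107, 1069 and 1152 CPM in the control libraries and 832, 757 and 818 CPM in the Bai1tm2b/tm2b libraries. All homozygous libraries lay below all controls, and the gap was wider than the spread within either genotype (1109.7 ± 41.7 against 802 ± 40.1, SD, n = 3 each, adjusted p = 0.00246, edgeR). The log2 fold change was -0.47 (SE 0.0621), short of the limit of the call. It stayed past the adjusted threshold in each of 6 fits that left out 1 library, with values from -0.50 to -0.42.

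Slc17a6, at chr7:51622006-51671119, had values of 140.5, 129 and 158 CPM in controls and 103, 98.4 and 104 CPM in Bai1tm2b/tm2b libraries. The homozygous libraries were tightly grouped and below every control. Its difference was -0.48 on the log2 scale (SE 0.0744, adjusted p = 0.00439, edgeR), likewise just short of the limit. Without control replicate 2, the library with high stria vascularis markers, it was -0.55 and Slc17a6 was called lower too.

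The ratio of Slc17a6 to Slc17a7 within a library did not differ detectably between genotypes at P22. The log2 ratio of CPM was -2.97 ± 0.0947 in controls and -2.98 ± 0.0325 in Bai1tm2b/tm2b libraries (SD, n = 3 each), a difference of -0.01 (exact 2-sided permutation test, p = 0.8). Markers of neurons as a group were also lower. Of 15 neuron markers, 13 had a negative log2 fold change with a median of -0.22 (0.01 over all genes), 7 passed the adjusted p (edgeR), and their sum was 12053 to 13651 CPM against 15709 to 17697. Slc17a7 relative to the mean log2 level of these markers was 1.62 to 1.64 in controls and 1.33 to 1.42 in Bai1tm2b/tm2b libraries, without overlap. This difference of -0.25 gave p = 0.1 in the exact permutation test, the smallest that 3 against 3 libraries can give, and 0.6 after adjustment over 18 ratios. Scaled to the neuron markers in place of all genes, which shifts the median gene by 0.23, Slc17a7 was -0.25 (adjusted p = 0.012, edgeR) and Slc17a6 was -0.26 (adjusted p = 0.0249, edgeR).

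Slc17a8, at chr10:89574020-89621253 on the minus strand, moved the other way. It measured 20.6, 22.8 and 23.0 CPM in controls and 24.3, 32.8 and 36.4 CPM in Bai1tm2b/tm2b libraries. The lowest homozygous library was just above the highest control, and the homozygous libraries varied more (SD 6.21 against 1.32). The log2 fold change was 0.49 (SE 0.129, adjusted p = 0.0336, edgeR), just under the limit of the call. The adjusted p held in only 2 of the 6 fits with 1 library left out (without control replicate 2 or homozygous replicate 1, where it was called higher), and the log2 fold change ran from 0.36 to 0.64.

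At P22 hair cell markers moved with Slc17a8. All 13 measured hair cell markers had a positive log2 fold change at P22, with a median of 0.45, 6 passed the adjusted p (edgeR) and 4 were called higher, among them Otof, which is needed for transmitter release from inner hair cells. Their summed level was 311 to 342 CPM in controls and 419 to 510 CPM in Bai1tm2b/tm2b libraries. Relative to the mean log2 level of these markers, Slc17a8 was 0.36 ± 0.221 in controls and 0.35 ± 0.162 in homozygous libraries (SD, n = 3 each), a difference of -0.01 (exact permutation test, p = 1). Scaled to the hair cell markers, which shifts the median gene by -0.45, its log2 fold change was 0.01 (adjusted p = 0.963, edgeR).

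**Figure D2:**
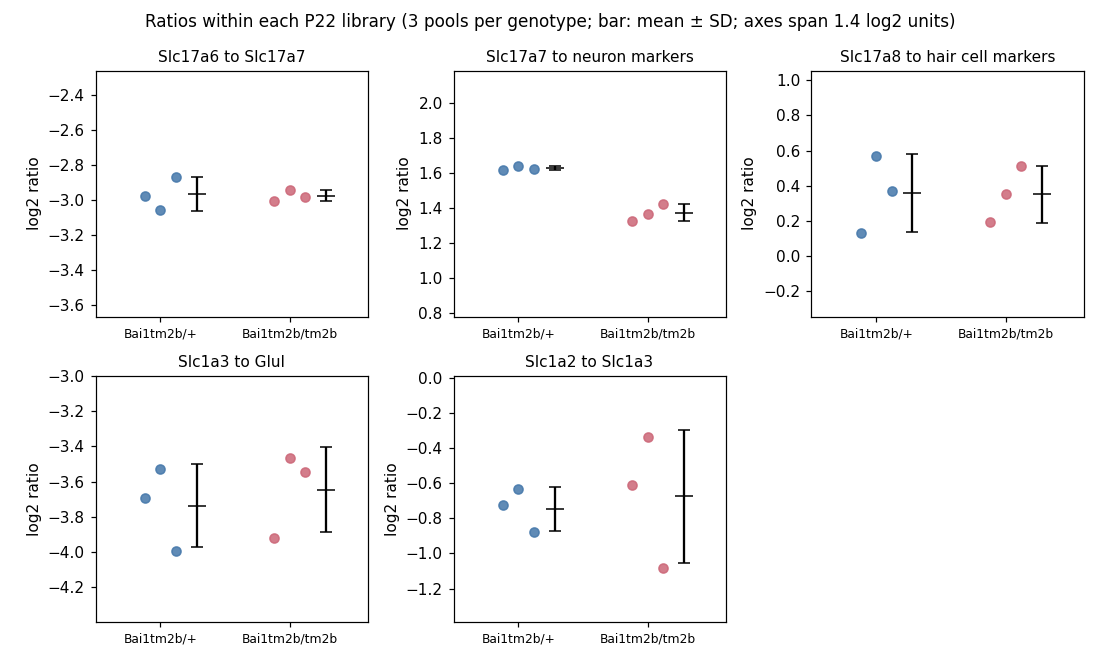
Log2 ratios within each P22 library (points, 3 per genotype; mean and SD beside them), each axis spanning the same range. The ratio of Slc17a7 to neuron markers lies lower in every Bai1tm2b/tm2b library, and the ratios of Slc17a6 to Slc17a7 and of Slc17a8 to hair cell markers overlap between genotypes.

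Per kilobase of the longest transcript, Slc17a7 made up most of the vesicular transporter signal in every set. At P22 its share was 90.2% ± 0.485 in controls and 89.2% ± 0.609 in Bai1tm2b/tm2b libraries (SD, n = 3 each). The share of Slc17a8 was 1.16% to 1.34% in controls and 1.81% to 2.73% in homozygous libraries, and that of Slc17a6 was 8.11% to 9.14% and 8.32% to 8.59%. In P7 replicates 5 to 7 the Slc17a8 share was 13.6% ± 7.29 and 13.7% ± 3.64 (SD, n = 3 each), with the genotypes overlapping.

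The glutaminase Gls2 showed the largest change of the 8 genes at P22. It lies at chr10:128194457-128210004, where 2.79% of its exon bases overlap Spryd4 on the opposite strand, and reads there cannot be assigned with certainty. It measured 27.05, 26.8 and 27.6 CPM in controls and 17.9, 14.7 and 16.5 CPM in Bai1tm2b/tm2b libraries, from 610 to 1042 estimated counts per library. The controls were almost equal, and every homozygous library was far below them. Gls2 fell by 0.73 on the log2 scale (SE 0.0866, adjusted p = 0.00132, edgeR), a level 1.66-fold lower. It was called in each of the 6 fits with 1 library left out, from -0.80 to -0.65, and under every other setting tried, from -1.18 scaled to hair cell markers to -0.52 scaled to neuron markers.

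Slc38a1, which carries glutamine into neurons and other cells, lies at chr15:96571418-96642913 on the minus strand. Its levels were 428, 397 and 491 CPM in controls and 331, 357 and 322 CPM in Bai1tm2b/tm2b libraries. Every homozygous library was below every control. Slc38a1 differed by -0.38 on the log2 scale (SE 0.0793, adjusted p = 0.0132, edgeR). Leaving out homozygous replicate 3 gave -0.35 with an adjusted p of 0.05005 (edgeR), just past the threshold, and scaling to the neuron markers gave -0.16 (adjusted p = 0.151, edgeR).

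Among the uptake genes, Slc1a3 at chr15:8634124-8710764 measured 96.4, 93.7 and 95.7 CPM in controls and 106, 121 and 111 CPM in Bai1tm2b/tm2b libraries. The groups did not overlap, though the gap was small. Its log2 fold change was 0.24 (SE 0.0629, adjusted p = 0.0326, edgeR). Supporting cell markers moved with it: of 10, 9 had a positive log2 fold change with a median of 0.33, 4 were called higher (Epyc, Fgfr3, Lfng and Tectb) and 1 lower (Prox1, edgeR), and their sum was 1272 to 1429 CPM in controls and 1575 to 1755 CPM in Bai1tm2b/tm2b libraries. Their part in the Slc1a3 level was not tested. The adjusted p held in 1 of the 6 fits with 1 library left out (without homozygous replicate 1) and was 0.0589 to 0.108 in the other 5, and scaling to the hair cell markers turned the value to -0.22 (adjusted p = 0.197).

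Slc1a2, the chief astrocyte glutamate transporter of the brain, lies at chr2:102658659-102790784. It measured 58.3, 60.3 and 52.0 CPM in controls and 69.3, 96.1 and 52.4 CPM in Bai1tm2b/tm2b libraries. The homozygous libraries spread widely and 1 lay among the controls, with a log2 fold change of 0.35 (SE 0.169, adjusted p = 0.199, edgeR). Within the homozygous libraries Slc1a2 followed the summed central glia markers, which were 1097, 1392 and 866 CPM in the same order, and in controls those markers were 602, 731 and 645 CPM. Without homozygous replicate 2 the log2 fold change was 0.10 (adjusted p = 0.646), and without homozygous replicate 3 it was 0.54 (adjusted p = 0.0283, edgeR). The part of the central glia markers in the Slc1a2 level was not tested.

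Glul, at chr1:153899944-153909723, had the highest level per length of the 8 genes. Of its exon bases, 3.49% overlap Teddm2 on the opposite strand and 2.80% overlap Mir8114 on the same strand. It measured 1247, 1082 and 1526 CPM in controls and 1602, 1345 and 1298 CPM in Bai1tm2b/tm2b libraries. The genotypes overlapped, and the log2 fold change was 0.14 (SE 0.119, adjusted p = 0.476, edgeR). Scaling to the neuron markers gave 0.36 (adjusted p = 0.0179) and scaling to the hair cell markers -0.30 (adjusted p = 0.0874), so its direction depended on the scaling.

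Of 32 further genes of glutamate transport and metabolism, 30 were tested at P22. None was called, 5 passed the adjusted p with lower levels (7.28% of all genes did) and 2 with higher levels (5.04% of all genes, edgeR), and their median log2 fold change was 0.07 against 0.01 over all genes. The lower genes included both aspartate aminotransferases, which exchange glutamate and aspartate. Got1 was 517 ± 11.9 CPM in controls and 416 ± 24.1 CPM in homozygous libraries (log2 fold change -0.31, adjusted p = 0.0092), and Got2 was 468 ± 9.31 and 385 ± 21.6 CPM (-0.28, adjusted p = 0.0132, SD, n = 3, edgeR). Another 2 were mitochondrial carriers. Slc25a12, the aspartate and glutamate carrier of the malate-aspartate shuttle, was 239 ± 14.6 and 182 ± 4.85 CPM (-0.39, adjusted p = 0.00417, edgeR). Slc25a22, which brings glutamate into mitochondria, was 127 ± 4.29 and 102 ± 7.36 CPM (-0.32, adjusted p = 0.0128, edgeR).

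The 2 higher genes of this list, a share near that of all genes, were Slc7a11 and Slc38a3. The cystine-glutamate exchanger Slc7a11 was 61.8 ± 4.43 CPM in controls and 80.9 ± 13.2 CPM in homozygous libraries (0.39, adjusted p = 0.0364). Slc38a3, a glutamine transporter known from astrocytes, was 26.5 ± 0.301 and 35.2 ± 6.09 CPM (0.41, adjusted p = 0.0387, SD, n = 3, edgeR).

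At P7, before the onset of hearing, none of the 8 genes was called in either set. In replicates 5 to 7 (16026 genes tested) edgeR called 0% of all genes in each direction. An unadjusted p under 0.05 was found for 1 of the 8 genes, Slc1a2, and for 763 of all genes. DESeq2 called Slc1a2 higher, with 44 of 19380 genes called higher and 4 lower. In replicates 1 to 4, limma on log2(TPM + 1) was run for the 11740 genes that averaged 5 TPM or more. There 0 of 7 tested members were called, where 0.656% of genes were called higher and 0.153% lower, and 0 passed the adjusted p, where 4.78% of genes did with higher and 3.38% with lower levels. In this set 1 member, Slc38a1, had an unadjusted p under 0.05, as did 4048 of the 11740 genes. In TPM as deposited the genotypes overlapped for every member. On TMM-scaled values, which is not the same measure, 9.24% of all genes were higher and 8.97% lower in every homozygous library.

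Slc1a2 in P7 replicates 5 to 7 measured 90.5, 93.0 and 74.8 CPM in controls and 117, 125 and 156 CPM in Bai1tm2b/tm2b libraries. It was the only one of the 8 whose genotypes did not overlap in this set, where 5.76% of all genes were higher in every homozygous library and 4.64% were lower. The log2 fold change was 0.62 (SE 0.132, unadjusted p = 0.00199 and adjusted p = 0.894, edgeR), and DESeq2 gave 0.62 with an adjusted p of 0.0137. The central glia markers overlapped between genotypes in this set (646 to 826 and 701 to 964 CPM), and the brain neuron markers did not (186 to 212 in controls and 230.3 to 254 CPM in homozygous libraries). Of the 8 central glia markers, 4 were higher in every homozygous library. These were the astrocyte genes Aldh1l1 (20.4 to 28.1 CPM in controls and 38.7 to 47.8 CPM in homozygous libraries) and Aqp4 (177 to 222 and 238 to 296 CPM), and Olig1 (68.7 to 90.6 and 108 to 180 CPM) and Olig2 (27.3 to 33.4 and 33.8 to 48.4 CPM) of the oligodendrocyte lineage. The other 4 (Gfap, Mobp, Mog and Opalin) overlapped, and none of the 8 passed the adjusted p, which was 0.894 or more (edgeR). The part of these markers in the Slc1a2 level was not tested. In replicates 1 to 4, Slc1a2 was 17, 21, 22 and 11 TPM in controls and 17, 16, 11 and 24 TPM in homozygous libraries, which overlapped fully (log2 fold change -0.17, SE 0.224, adjusted p = 0.621, limma).

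**Figure D3:**
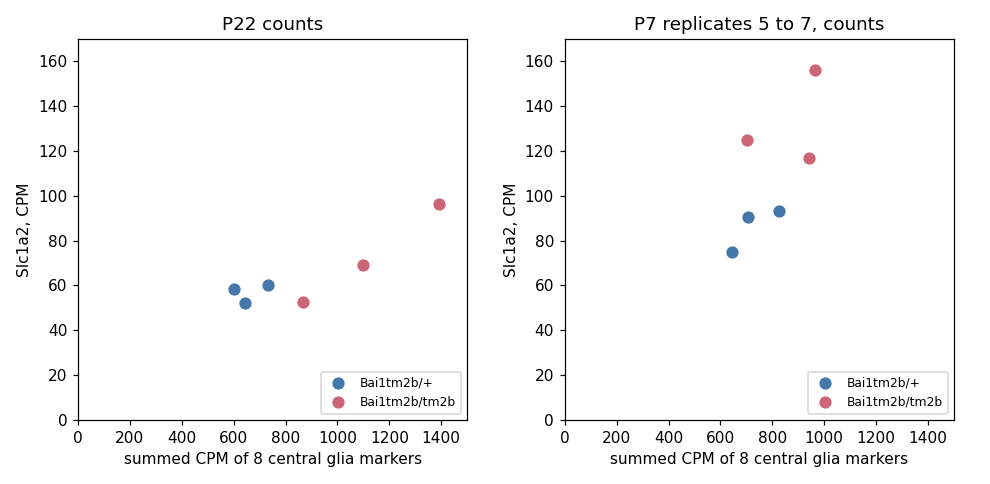
Slc1a2 (CPM) against the summed CPM of 8 central glia markers in each library, with P22 on the left and P7 replicates 5 to 7 on the right (3 libraries per genotype in each panel). At P22 the Bai1tm2b/tm2b library with the highest marker sum, 1392 CPM, has the highest Slc1a2 level, 96.1 CPM. At P7 all Bai1tm2b/tm2b points lie above all controls in Slc1a2, and the marker sums overlap although 4 of the 8 markers were higher in every Bai1tm2b/tm2b library.

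The neuronal vesicular transporters varied widely between P7 pools of the same genotype. In replicates 5 to 7, Slc17a7 was 54.4, 174 and 112 CPM in controls and 55.2, 101 and 141 CPM in Bai1tm2b/tm2b libraries. Slc17a6 was 27.2, 61.0 and 25.4 CPM in controls and 27.3, 34.5 and 46.1 CPM in homozygous libraries. The genotypes overlapped for both, with log2 fold changes of -0.19 (SE 0.457) and -0.08 (SE 0.358) and adjusted p of 0.954 and 0.979 (edgeR). A difference of the P22 size would lie within this spread, so it was not detectable in this set. In replicates 1 to 4, Slc17a7 was 97, 113, 82 and 72 TPM in controls and 66, 143, 139 and 120 TPM in homozygous libraries (log2 fold change 0.21, SE 0.213, adjusted p = 0.51, limma). Homozygous replicate 1 was the lowest of these 8 libraries, and without it the value was 0.44 with an adjusted p of 0.0292 (limma), in the direction opposite to P22. In that fit 1420 of 11727 genes passed the adjusted p with higher and 1296 with lower levels. Slc17a6 in this set was 21, 30, 19 and 14 TPM in controls and 26, 23, 25 and 38 TPM in homozygous libraries. The genotypes overlapped, and its log2 fold change of 0.31 (SE 0.188, adjusted p = 0.256, limma) was also opposite in sign to P22. Of 14 neuron markers tested in this set, 12 had a positive log2 fold change, with a median of 0.23. Scaled to the neuron markers, Slc17a7 was -0.041, while Slc17a6 stayed positive under the 6 other settings (0.075 to 0.42). The part of these markers was not tested.

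Slc38a1 in P7 replicates 1 to 4 was 34, 34, 27 and 24 TPM in controls and 33, 49, 43 and 45 TPM in Bai1tm2b/tm2b libraries. Homozygous replicate 1 lay among the controls and the other 3 lay above them. The log2 fold change was 0.39 (SE 0.116, unadjusted p = 0.00656, adjusted p = 0.0572, limma). It was 0.49 without homozygous replicate 1 (adjusted p = 0.0144, limma). There 1420 of 11727 genes passed the adjusted p with higher and 1296 with lower levels. Without scaling between libraries it was 0.50 (adjusted p = 0.0435, limma), which met the call, and 1407 of 11740 genes passed with higher and 132 with lower levels. In replicates 5 to 7, by contrast, it was 125 to 154 CPM in controls and 129.6 to 148 CPM in homozygous libraries, with a log2 fold change of 0.01 (SE 0.0951, adjusted p = 0.99, edgeR).

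The other members did not differ detectably between genotypes at P7. Slc17a8 was 25.0 to 29.7 CPM in controls and 22.9 to 29.3 CPM in Bai1tm2b/tm2b libraries (log2 fold change 0.01, SE 0.12), and 8 to 13 TPM and 11 to 13 TPM in replicates 1 to 4 (0.14, SE 0.121). Glul was 372 to 402 and 377 to 382 CPM (-0.03, SE 0.0677), and 292 to 352 and 320.0 to 353 TPM (-0.06, SE 0.0677). Slc1a3 was 176 to 197 and 174 to 236 CPM (0.20, SE 0.119), and 61 to 93 and 68 to 103 TPM (-0.04, SE 0.123). Its value in replicates 5 to 7 was near its P22 log2 fold change of 0.24. None of these P7 differences passed the adjusted p, which was 0.447 or more. Gls2 was low at this age, at 1.66 to 3.15 and 2.38 to 2.90 CPM (61 to 181 estimated counts; 0.08, SE 0.267), and it was listed at 1 or 2 TPM in replicates 1 to 4, under the minimum for a test.

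**Figure D4:**
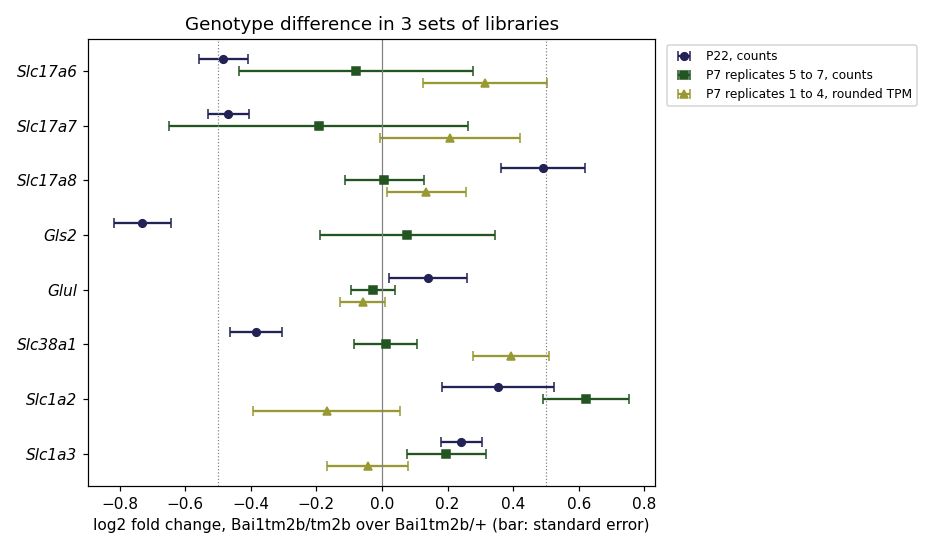
Log2 fold change of Bai1tm2b/tm2b over Bai1tm2b/+ with its standard error for the 8 genes at P22 (circles), in P7 replicates 5 to 7 (squares) and in P7 replicates 1 to 4 (triangles, rounded TPM, no value for Gls2). Dotted lines mark the limit of 0.5 on either side. Gls2 at P22 and Slc1a2 in P7 replicates 5 to 7 lie beyond it.

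Whether the genotype difference itself changed between the ages was tested in 1 edgeR fit of the 12 libraries deposited as counts. For 0 of the 8 genes did the difference at P22 minus that at P7 pass the adjusted p, where 0.0306% of 16314 genes passed with a negative value and 0% with a positive one, and DESeq2 also called 0 of the 8. At an unadjusted p under 0.05 there were 3 of the 8 genes, and 1666 of the 16314 genes tested. Gls2 had -0.78 (SE 0.251, adjusted p = 0.323, edgeR), Slc38a1 had -0.38 (SE 0.15, adjusted p = 0.404) and Slc17a8 had 0.50 (SE 0.203, adjusted p = 0.422). For Slc17a7 and Slc17a6 the values were -0.26 (SE 0.511) and -0.39 (SE 0.4). That of Slc1a3 was 0.06 (SE 0.152, adjusted p = 0.927, edgeR). These values do not show that the P22 differences were absent at P7.

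Between P7 and P22 the genes separated into those that rose steeply and those that did not. Age, deposited table and sequencing run coincide in these 12 libraries and cannot be told apart, which holds for each value given here. In the joint fit 5 of the 8 genes were called higher at P22 (25.9% of all genes tested) and 1 was called lower (28.7% of all genes), and by the adjusted p alone 6 were higher (38.2%) and 2 lower (42%). Within controls 5 were called higher (24.8% of all genes) and 1 lower (27%), and within Bai1tm2b/tm2b mice 6 higher (24.2%) and 2 lower (25.1%). The libraries of the 2 ages did not overlap for the same 6 genes, where 30.6% of all genes were higher in every P22 library and 32% lower.

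Slc17a7 and Gls2 rose most. Slc17a7 went from 48.2 to 159.8 CPM (median 97.1) over the 6 P7 libraries to 835 to 1276 CPM (median 1054) over the 6 P22 libraries, all scaled together. Its log2 fold change was 3.43 (SE 0.281, adjusted p = 1.29e-07, edgeR). Gls2 rose from 1.502 to 2.89 CPM (median 2.46) to 16.2 to 30.6 CPM (median 24.8), with a log2 fold change of 3.30 (SE 0.131, adjusted p = 2.22e-10, edgeR). At least 98.8% of all genes tested had a lower log2 fold change than either. The order of their estimates was not the same in the 2 genotypes, but their ranges of 1 SE overlapped in both. Within controls the values were 3.57 (SE 0.399) for Slc17a7 and 3.69 (SE 0.186) for Gls2, and within Bai1tm2b/tm2b mice 3.30 (SE 0.395) and 2.91 (SE 0.184). The difference between the 2 genes was not tested. The neuron markers also rose, with a median of 2.46 and 14 of 15 called higher.

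Glul rose from 333 to 369 CPM (median 345) to 1202 to 1769.5 CPM (median 1455), a log2 fold change of 2.10 (SE 0.09, adjusted p = 4.1e-10, edgeR). Slc17a6 rose from 23.3 to 56.0 CPM (median 27.97) to 109 to 175 CPM (median 129), by 1.99 (SE 0.206, adjusted p = 1.33e-06, edgeR). Slc38a1 rose from 113 to 141 CPM (median 131) to 354 to 544 CPM (median 417), by 1.74 (SE 0.077, adjusted p = 5.22e-10, edgeR). In each of these the lowest P22 library was far above the highest P7 library.

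Of the uptake transporters, Slc1a3 was lower at P22 in both genotypes and Slc1a2 passed the adjusted p only in the fits that include Bai1tm2b/tm2b mice. Slc1a3 was 152 to 215 CPM (median 170.3) at P7 and 104 to 134 CPM (median 112) at P22 and fell by 0.64 on the log2 scale (SE 0.0763, adjusted p = 5.38e-06, edgeR), with -0.67 within controls and -0.61 within homozygous mice. Supporting cell markers moved too, with a median of -1.71, 7 of 10 called lower and 2 higher. Slc1a2 was 68.4 to 142 CPM (median 93.7) at P7 and 57.5 to 106 CPM (median 65.7) at P22, which overlapped, with a log2 fold change of -0.45 (SE 0.131, adjusted p = 0.00726, edgeR) that missed the limit. Within controls it was -0.32 (SE 0.186, adjusted p = 0.141) and within Bai1tm2b/tm2b mice -0.57 (SE 0.186, adjusted p = 0.0144, edgeR), and the difference between these did not pass (adjusted p = 0.78). Without homozygous P22 replicate 2 it was -0.57 and met it. Glul, which acts after uptake, moved opposite to Slc1a3 between the ages. The log2 ratio of Slc1a3 to Glul within a library was -1.19 to -0.98 in P7 controls of replicates 5 to 7 and -3.99 to -3.53 in P22 controls.

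Slc17a8 changed least between the ages, from 20.03 to 26.9 CPM (median 24.7) at P7 to 22.8 to 40.0 CPM (median 26.1) at P22, with overlap. Its log2 fold change was 0.26 (SE 0.102, adjusted p = 0.0338, edgeR), and the adjusted p was lost in 7 of the 12 fits with 1 library left out, where it reached 0.0928. Within controls it was 0.01 (SE 0.144, adjusted p = 0.965) and within Bai1tm2b/tm2b mice 0.50 (SE 0.143, adjusted p = 0.00694, edgeR). The difference between these is the one that did not pass the adjusted p above. Hair cell markers had a median of -0.94 over the same ages, with 9 of 13 called lower and 1 higher.

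**Figure D5:**
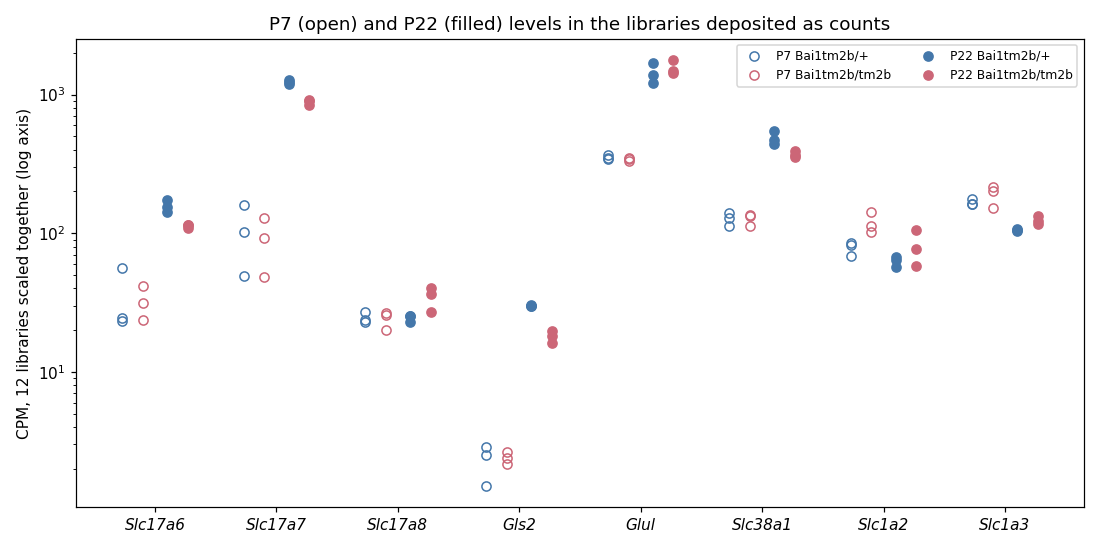
CPM of the 8 genes in the 12 libraries deposited as counts, scaled together, on a log axis, with P7 replicates 5 to 7 as open and P22 as filled circles (3 libraries per genotype and age). P22 lies above P7 without overlap for Slc17a6, Slc17a7, Gls2, Glul and Slc38a1, below it for Slc1a3, and overlaps it for Slc17a8 and Slc1a2.

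Of the 32 further genes of the pathway, 10 were called higher at P22 and 8 lower (edgeR), where 25.9% and 28.7% of all genes were, with a median log2 fold change of -0.17 against -0.05 over all genes. The largest rise was that of Got1 (3.11), and Slc25a22 (1.84), Slc25a12 (1.61) and Got2 (1.32) also rose. These 4 genes were among those of the list that were lower in Bai1tm2b/tm2b mice at P22.

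Per kilobase of the longest transcript, the order of the 8 genes was as follows. In P22 controls Glul came first at 460.2 ± 80.3 CPM per kb, followed by Slc17a7 (360.3 ± 13.5), Slc38a1 (60.4 ± 6.63), Slc17a6 (34.4 ± 3.57), Slc1a3 (21.5 ± 0.32), Gls2 (10.5 ± 0.169), Slc17a8 (4.97 ± 0.296) and Slc1a2 (4.90 ± 0.375, SD, n = 3). The last 2 overlapped, and every other pair of neighbours was apart. In P22 Bai1tm2b/tm2b libraries Slc1a3 (25.4 ± 1.80) and Slc17a6 (24.6 ± 0.716) overlapped, as did Slc17a8 (6.99 ± 1.39), Gls2 (6.36 ± 0.634) and Slc1a2 (6.26 ± 1.90).

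In P7 controls of replicates 5 to 7 Glul was again first at 139 ± 5.32 CPM per kb and Slc1a3 came next at 41.4 ± 2.54, overlapping Slc17a7 at 36.8 ± 19.4. Slc38a1 (19.2 ± 1.99), Slc17a6 (9.16 ± 4.84), Slc1a2 (7.43 ± 0.852), Slc17a8 (6.02 ± 0.579) and Gls2 (0.981 ± 0.3, SD, n = 3) followed. In replicates 1 to 4 the TPM values of controls placed Glul first (327 ± 25.3) and Gls2 last (1.5 ± 0.577), with Slc17a7 (91.0 ± 17.9) and Slc1a3 (80.2 ± 13.6, SD, n = 4) overlapping between them.

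The members fell into groups in how they varied over the 12 count libraries once the mean of each age was removed. Pearson's r of log2(CPM + 0.5) was 0.83 between Slc17a6 and Slc17a7 and 0.80 between Gls2 and Slc38a1. It was 0.74 between Slc17a8 and Slc1a3, 0.71 between Slc1a2 and Slc1a3 and -0.76 between Slc17a8 and Gls2. Glul had no r beyond 0.2 in size with any other member. These libraries share the genotype difference and their scaling, so the values describe these libraries only.

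Over the same 12 libraries and 12436 genes with a mean of at least 5 CPM, the gene most like Slc17a7 was Scrt1 (r = 0.99), followed by Galnt9 and Sncb (synuclein beta, a presynaptic protein). Most like Slc17a6 were Syn2 (r = 0.97), which encodes the synaptic vesicle protein synapsin II, and Rab6b and Fbxo41. Most like Slc1a2 were Adcyap1r1 (r = 0.98), Adora1 and Olig1 (r = 0.94), a transcription factor of the oligodendrocyte lineage and a member of the central glia list. For Slc17a8 they were Tmem254b, Lipo1 and Arl6ip6 (r = 0.95 each), for Slc1a3 Mpv17l, Tyro3 and Hrsp12 (0.91 to 0.95), and for Glul Phf10, Klf15 and Fkbp5 (0.90 to 0.93). Gls2 was most like Alg3, Tmem63b and Tvp23a (0.94 to 0.96) and Slc38a1 most like Klhdc10, Ubxn2a and Osbpl3 (0.97 to 0.98).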

How the data were processed

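Cochlear RNA-seq libraries (pools of 4 mice, poly A enriched, paired-end) were processed by the authors with the nf-core RNA pipeline at standard parameters against mm10. Salmon gave gene levels, and the submitters' notes also name STAR and DESeq2; versions, annotation and strand setting are not given in the sources used here. For P22 and P7 replicates 5 to 7 the authors deposited Salmon estimated counts per gene, not normalized, which were rounded to whole numbers. For P7 replicates 1 to 4 the deposited values are whole numbers with library totals of 999644 to 999777, entered as a score that was read as rounded TPM, so no count test was run on them. The study describes P7 batches of 4 and 3 pools per genotype. The labels do not say which libraries form which batch, and the P7 sets were split by unit. No column of values was left out (0). Both tables had 24411 rows, 27 of them date-like names, none a member.

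Counts were tested with edgeR 4.0.16 (quasi-likelihood, TMM, filterByExpr) and alternatively DESeq2 1.42.0, and TPM with limma 3.58.1 (trend, TMM-scaled log2(TPM + 1)), in R 4.3.3. P7 and P22 count libraries entered 1 further fit for age and the interaction. P-values were Benjamini-Hochberg adjusted over all genes tested, and the study's limits (adjusted p 0.05, log2 fold change 0.5, standard error 0.5) made a call. CPM are TMM-scaled. Ratios (CPM or TPM + 0.1) were compared by exact 2-sided permutation over libraries. A fold change of TPM is on the log2(TPM + 1) scale and understates low genes. Levels per kb used the longest GENCODE transcript (mm10). The scripts were tested on simulated data.

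All 8 members are named. Of the 32 pathway genes, those past the adjusted p at P22 (at most 8) or in the interaction (at most 4) are named, except 1 that is not reported here, and for likeness the 3 genes with the highest r. Otof, Aldh1l1, the 3 brain neuron markers and the other genes named under age were named from the lists or after their values were seen. The members and lists were chosen with earlier results of these data known. Alternatives were other size factors, filters, pseudocounts, marker scaling, a replicate block and leaving out each library.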

Additional observations from a re-analysis of the deposited data

Results flagged for a closer look

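Of 28 groups of 4 libraries tested for a library far from the others, 1 is reported here, and chance flags about 1 in 20. It is Gls2 in P7 Bai1tm2b/tm2b replicates 1 to 4. Gls2 was listed there at 2, 2, 1 and 2 TPM, so that the gap of replicate 3 to the others made up the whole range (a share of 1). At values of 1 or 2, one step of rounding sets the gap.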

How the results depend on the processing

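Gls2 at P22 was called lower under every setting tried. Counts of members moved as follows. At P22 the members called higher became 2 when scaled to neuron markers (Slc17a8 and Slc1a2) and 0 to 1 with 1 library left out, and those called lower became 4 when scaled to hair cell markers (Slc17a6, Slc17a7, Gls2 and Slc38a1) and 1 to 2 with 1 library left out. In P7 replicates 5 to 7 DESeq2 called 1 higher (Slc1a2), in replicates 1 to 4 omitting TMM called 1 higher (Slc38a1), and for age 1 to 2 were called lower with 1 library left out. The cause was not tested.

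Scaled to hair cell markers, Slc1a2 (-0.12), Slc1a3 (-0.22) and Glul (-0.30) reversed at P22, and Slc17a8 (-0.21), Slc1a3 (-0.026), Gls2 (-0.20) and Slc38a1 (-0.25) reversed in P7 replicates 5 to 7. Scaled to neuron markers, Slc17a6 (0.25), Slc17a7 (0.12) and Glul (0.21) reversed in replicates 5 to 7, and Slc17a7 (-0.041) and Slc17a8 (-0.092) in replicates 1 to 4. These scalings shifted the median gene by -0.45 and 0.23 at P22, -0.22 and 0.23 in P7 replicates 5 to 7, and -0.23 (neuron) in replicates 1 to 4. Without TMM, which moved the median gene to 0.12, Slc1a3 (0.066) and Glul (0.052) reversed in replicates 1 to 4.

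With 1 library left out, values crossed 0 in P7 replicates 5 to 7 for Slc17a6 (-0.30 to 0.45), Slc17a7 (-0.54 to 0.26), Slc17a8 (-0.060 to 0.11), Gls2 (-0.14 to 0.27) and Slc38a1 (-0.058 to 0.084), in replicates 1 to 4 for Slc1a2 (-0.34 to 0.0033) and Slc1a3 (-0.14 to 0.043), and in the interaction for Slc17a7 (-0.72 to 0.095) and Slc1a3 (-0.076 to 0.16). For the ratios, only the difference between genotypes was computed again under other settings, without an adjusted p. Whether a ratio changed its side of the threshold was therefore not tested. The smallest p of the exact permutation test is 0.1 for 3 against 3 libraries and 0.0286 for 4 against 4. After adjustment over 18 ratios neither can pass the threshold.

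Same-numbered libraries of the 2 genotypes did not deviate together (r from -0.25 to 0.08), so the numbers were not taken as pairing. A replicate block gave 261 higher and 205 lower genes at P22 against 269 and 218, moved Slc1a3 at P22 to an adjusted p of 0.0635 (0.24), turned the log2 fold change of Slc17a6 in P7 replicates 5 to 7 to 0.011 (adjusted p = 0.999), and left 0 of all genes called in P7 replicates 1 to 4, where 77 and 18 were called without it and 0 in 6 of 8 fits with 1 library left out. DESeq2 called 44 genes higher and 4 lower in P7 replicates 5 to 7, where edgeR called 0, and 31 and 88 in the interaction against 0 and 5. The 3 pools a genotype and wide P7 spread limit what could be seen, and at 1 to 3 CPM Gls2 at P7 rests on few counts.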
